A study of Mus musculus with 12 samples.

Results

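Genes of the synaptonemal complex and of meiotic recombination were followed in mouse testis across 12 two-colour cDNA arrays. They were a named set of 9 genes: Syce2, Syce1, Sycp1, Sycp3, Kash5 (formerly Ccdc155), Hormad1, Dmc1, Spo11 and Smc1b. Every probe carrying one of these symbols was taken. Of the 9 genes, 3 had a probe: Syce2 (1 probe), Kash5 (1 probe) and Smc1b (2 probes), which makes 4 of 20355 probes and 3 of 16255 features after probes of a gene were averaged. No probe was named Syce1, Sycp1, Sycp3, Hormad1, Dmc1 or Spo11, so these 6 genes have no value here.

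RNA came from whole testis of wildtype males, of Wobbler males (wr/wr) and of males labelled Wobbler modifier (wr/mod), all on a Castaneus background and each pooled from 3 individuals. Ages are not given, and the labels do not say what the modifier is. Each of the 3 possible pairs of genotypes was hybridised on 4 arrays, with the dyes exchanged on 2 of them (replicates 3 and 4). Nothing in the labels says that the 4 arrays of a pair came from separate pools, so p-values reflect only how arrays varied, and that variation may be technical. Wobbler is a recessive mutation of Vps54, a subunit of a complex that tethers vesicles at the Golgi, and Wobbler males are infertile.

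In the prophase of meiosis, homologous chromosomes pair, are zipped together by the synaptonemal complex and exchange DNA. Sycp3 and Hormad1 build the axis on which chromatin loops are held, Smc1b is the meiosis-specific SMC subunit of the cohesin ring that holds sister chromatids on that axis, and Sycp1 forms the transverse filaments between the axes. Syce1 and Syce2 belong to the central element, where filaments from opposite axes meet. Spo11 makes the DNA breaks that start recombination, Dmc1 is the recombinase that repairs them from the homologue, and Kash5 sits in the outer nuclear membrane, where it couples chromosome ends to the dynein motor.

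The stretches of DNA before the start sites of the 3 measured genes are shown because Syce2 and Kash5 had similar ratios on the arrays and Smc1b did not. Each is the 250 bases upstream of the first start site listed by RefSeq in build GRCm38.p6, written 5′ to 3′ on the gene's strand, with matches to the searched motifs in capitals. They lie at chr8:84871861-84872110 (plus strand), chr7:45204893-45205142 (minus strand) and chr15:85131958-85132207 (minus strand). Part of the Kash5 window lies within the gene's span, which ends at 45204919, so the start site used is not its outermost.
Syce2: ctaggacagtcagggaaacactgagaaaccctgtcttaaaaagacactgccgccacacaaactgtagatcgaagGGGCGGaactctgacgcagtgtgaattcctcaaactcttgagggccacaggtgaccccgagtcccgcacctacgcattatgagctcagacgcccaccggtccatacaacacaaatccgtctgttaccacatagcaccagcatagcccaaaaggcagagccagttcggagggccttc
Kash5: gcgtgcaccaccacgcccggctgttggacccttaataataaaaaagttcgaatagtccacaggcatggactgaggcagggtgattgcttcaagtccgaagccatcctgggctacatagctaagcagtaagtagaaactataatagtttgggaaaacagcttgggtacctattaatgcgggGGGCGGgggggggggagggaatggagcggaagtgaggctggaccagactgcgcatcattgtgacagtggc
Smc1b: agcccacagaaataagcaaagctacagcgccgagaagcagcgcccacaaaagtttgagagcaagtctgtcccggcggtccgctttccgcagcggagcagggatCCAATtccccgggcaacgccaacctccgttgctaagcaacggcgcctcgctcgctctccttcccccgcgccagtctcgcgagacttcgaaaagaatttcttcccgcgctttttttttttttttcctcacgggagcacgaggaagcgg

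The motifs searched on both strands were CAACTG and TAACGG (MYB type), CNCCTCAG (STRA8), TGACGTCA (cAMP response element), GGCGGGAA (E2F), GGGCGG (Sp1) and CCAAT. In these windows Syce2 and Kash5 held 1 GGGCGG each, at 176 to 171 and at 70 to 65 bases before the start, and Smc1b held 1 CCAAT at 147 to 143 bases before the start. GGGCGG was found in 32.7% and CCAAT in 33.8% of 32851 promoter windows of that length. RefSeq lists a further start site for Syce2, downstream of the first. The window before it held CTGAGGCG, a match to the STRA8 motif (in 6.42% of windows), at 39 to 32 bases before the start, overlapped by GGCGGGAA, the E2F motif (1.86% of windows), at 35 to 28 bases. It also held 4 matches to GGGCGG. The 3 other motifs had no match in any of the 4 windows. They were present in 11.1% (CAACTG), 2.18% (TAACGG) and 1.55% (TGACGTCA) of all windows. A match describes letters only and shows no binding.

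The values are log2 ratios of the first-named genotype over the second, with arrays 3 and 4 of each comparison multiplied by -1. The deposited direction is not stated. With arrays 3 and 4 turned, the 3 comparisons closed their loop with a correlation of 0.18 across 14975 probes, against 0.01 with no array turned. That bears only on the turning of arrays 3 and 4, and is the same if every sign is reversed. The direction itself is only likely, being taken from array titles and the common practice of giving Cy5 over Cy3, so each share below is also given with the sign reversed. Arrays held 18325 to 19584 usable spots, and precision is limited by there being 4 arrays per comparison. The files give ratios and not levels, so the tissue could not be checked by the level of its markers.

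Modifier RNA was hybridised against wildtype RNA to see what differs between those testes. Syce2 and Kash5 were both lower with the modifier, to about the same extent, while Smc1b showed no difference beyond its spread. The linear model of limma over all features, with Benjamini-Hochberg adjustment and a threshold of 0.05, called 2 of the 3 measured genes lower. Over all 14729 features tested, 0.733% were called in this comparison, 0.699% lower and 0.0339% higher. Since whole testis was used, fewer meiotic cells and less transcript per cell cannot be told apart.

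Syce2 lies at chr8:84872111-84887446 of GRCm38.p6, and its last 1060 bases overlap the span of Gcdh, a mitochondrial enzyme of lysine breakdown. In modifier over wildtype its log2 ratios were -0.78, -0.86, -1.27 and -0.85 on replicates 1 to 4. All 4 arrays lay below 0, as they did for 10.4% of the features with 4 values, and replicate 3 lay apart from the others. The median over all spots was also lowest on replicate 3 (-0.179). The mean was -0.94 ± 0.22 (SD, n = 4), so that Syce2 stood at 52.1% of wildtype, or at 192% with the sign reversed. It passed with limma (SE 0.13, adjusted p = 0.00867) and ranked 163 from that end of all ratios.

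Kash5 lies at chr7:45183619-45204919, and the lncRNA gene Gm31097 lies within it. In modifier over wildtype its log2 ratios were -0.99, -0.88, -1.21 and -0.65 on replicates 1 to 4. Replicate 3 was again the lowest, and all arrays lay below 0. The mean was -0.93 ± 0.23 (SD, n = 4), or 52.4% of wildtype (191% with the sign reversed). Kash5 passed (SE 0.14, limma adjusted p = 0.0150) and ranked 168 from the same end.

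Both calls rested on all of the first 3 arrays. Without replicate 1, 2 or 3 of this comparison, the adjusted p of Syce2 was 0.0822, 0.0994 and 0.0874, and that of Kash5 0.148, 0.140 and 0.125. The ratios themselves stayed between -1.04 and -0.89 for Syce2 and between -1.11 and -0.83 for Kash5 when any 1 of the 12 arrays was left out. Kash5 also lost its call in limma without the dye term (adjusted p = 0.0724) and with replicate number as a block (0.0677). With the 4 arrays fitted alone both genes lost theirs (0.136 for Syce2 and 0.150 for Kash5).

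Smc1b lies at chr15:85064689-85131957, and 52892 of its bases lie within the span of Fam118a, which also holds the pseudogene Gm10923. The gene table used gives no strand, and where the probes lie in the gene is not given in the sources used here. Averaged over its probes, its log2 ratios in modifier over wildtype were 0.01, 0.29, -0.26 and 0.29 on replicates 1 to 4. Values lay on both sides of 0. The mean was 0.08 ± 0.26 (SD, n = 4), with a 95% interval of -0.33 to 0.49 from the fit (limma adjusted p = 1). The 2 probes disagreed, which the averaging hides. One gave -0.71, 0.43, -0.28 and 0.79 (SD 0.68), and the other 0.73, 0.15, -0.25 and -0.21 (SD 0.45).

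**Figure D1:**
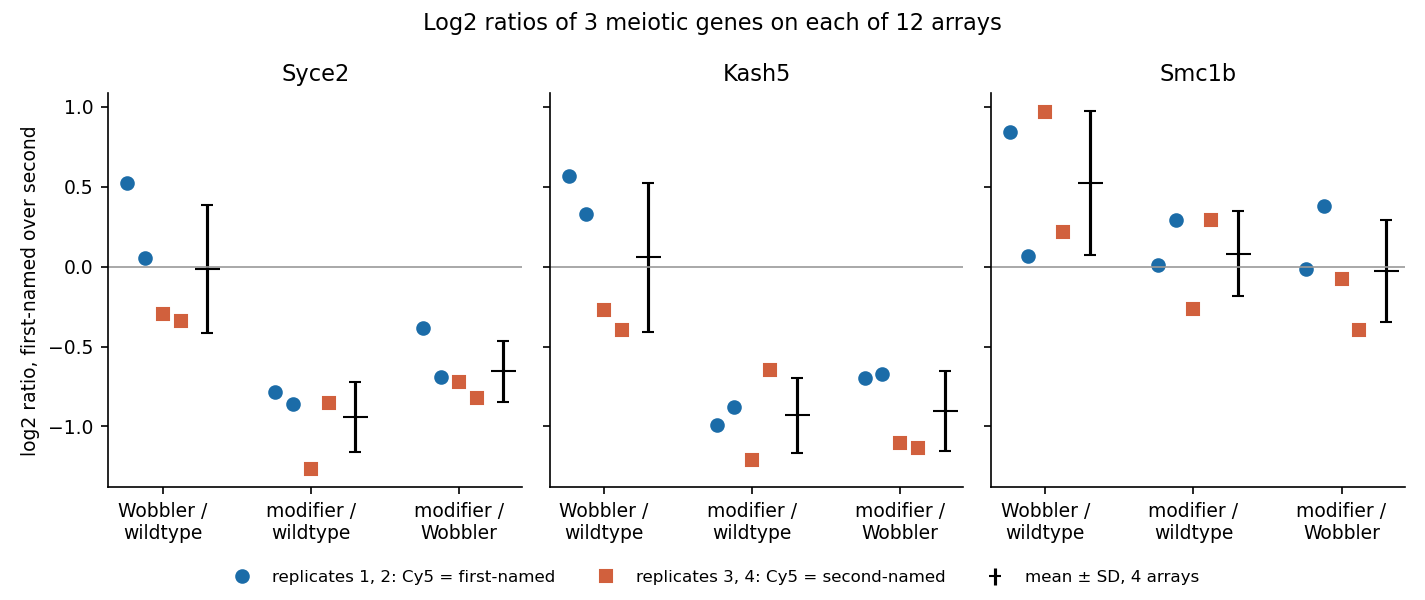
Log2 ratios of Syce2, Kash5 and Smc1b (vertical axis, first-named genotype over second) on each of 12 arrays, grouped by comparison along the horizontal axis; circles are replicates 1 and 2, squares the dye-exchanged replicates 3 and 4, and bars the mean ± SD of 4 arrays. Syce2 and Kash5 lie below 0 on all 8 arrays with modifier RNA and on both sides of 0 in Wobbler over wildtype, split there by dye orientation.

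Modifier testis was next set against Wobbler testis without the modifier. Kash5 was lower here as well, and Syce2 leaned the same way without passing. Of the 3 measured genes 1 was called lower, beside 0.414% of all features called, 0.299% lower and 0.115% higher. Both modifier comparisons contain modifier RNA, so their values are not independent of each other.

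Kash5 had log2 ratios of -0.70, -0.67, -1.10 and -1.13 on replicates 1 to 4 of modifier over Wobbler. The dye-exchanged arrays were the lower ones, and all lay below 0, as for 6.13% of features with 4 values. The mean was -0.90 ± 0.25 (SD, n = 4), or 53.5% of the Wobbler value (187% with the sign reversed). It passed with limma (SE 0.14, adjusted p = 0.0307). The call was lost without any 1 of the 4 arrays of this comparison (adjusted p of 0.152, 0.129, 0.0896 and 0.104 for replicates 1 to 4) and without replicate 1, 2 or 3 of modifier over wildtype (0.0544, 0.0663 and 0.0535), which share the estimate of spread. It was also lost when 2 Kash5 spots taken as dim were set to missing (0.0739). Once the array's additive shift was removed, these sat at log2 ratios of small whole numbers, taken as a sign of a dim spot. The same happened to the Kash5 call without the dye term (0.107) and with replicate number as a block (0.0948). Array weights (0.0550) and fitting the 4 arrays alone (0.491) removed it too.

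Syce2 had log2 ratios of -0.38, -0.69, -0.72 and -0.82 on the same arrays. Replicate 1 was the highest, and all 4 lay below 0. The mean was -0.65 ± 0.19 (SD, n = 4), or 63.6% of the Wobbler value (157% with the sign reversed), with a 95% interval of -0.93 to -0.37, and it did not pass (limma adjusted p = 0.0650). It passed without replicate 1 or 2 of Wobbler over wildtype (adjusted p of 0.0402 and 0.0464) and with arrays centred on their medians (0.0366). That Syce2 passed against wildtype and not against Wobbler does not show a difference between the 2 comparisons: the ratios differed by -0.29 ± 0.18 (SE), with an unadjusted p of 0.137 from limma and an adjusted p of 1.

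Smc1b had log2 ratios of -0.01, 0.38, -0.08 and -0.40 in modifier over Wobbler. The arrays lay on both sides of 0, and 1 of the 2 probes had no value on replicate 2. The mean was -0.03 ± 0.32 (SD, n = 4), with a 95% interval of -0.43 to 0.38 (limma adjusted p = 0.981). The probe lacking replicate 2 gave -0.32, 0.12 and -0.40 on the other arrays. Its partner gave 0.29, 0.38, -0.28 and -0.39, so that its sign followed the dyes.

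The Wobbler mutation without the modifier was the subject of the last comparison. Of the 3 genes 0 passed, with 1 at an unadjusted p under 0.05 (Smc1b), while limma called 0.306% of all features (0.183% lower, 0.122% higher) and 2310 of 14729 had an unadjusted p under 0.05. Syce2 and Kash5 averaged close to 0, and Smc1b leaned higher in Wobbler.

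Syce2 had log2 ratios of 0.52, 0.05, -0.30 and -0.34 on replicates 1 to 4 of Wobbler over wildtype. Both arrays with Wobbler RNA in Cy5 were above 0, and both with the dyes exchanged were below. The mean was -0.02 ± 0.40 (SD, n = 4), with a 95% interval of -0.30 to 0.26. Kash5 split in the same way, with log2 ratios of 0.57, 0.33, -0.27 and -0.40. Its mean was 0.06 ± 0.46 (SD, n = 4), with a 95% interval of -0.26 to 0.37.

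As deposited, before any sign was turned, these 8 ratios of Syce2 and Kash5 were all positive. Read as Cy5 over Cy3, the Cy5 sample was the higher one whichever genotype it held. The median over all spots also changed sign with the dyes. After turning, it was 0.116, 0.025, -0.217 and -0.098 on replicates 1 to 4 of Wobbler over wildtype. The dye term of the fit was 0.18 ± 0.07 (SE) for Syce2 and 0.20 ± 0.08 (SE) for Kash5, with limma adjusted p of 0.198 and 0.201. For Smc1b it was 0.07 ± 0.11 (SE). In modifier over wildtype, Syce2 averaged -0.82 on replicates 1 and 2 and -1.06 on replicates 3 and 4, and Kash5 -0.93 on either set of 2 arrays. Against Wobbler the corresponding means were -0.54 and -0.77 for Syce2 and -0.69 and -1.12 for Kash5. Both dye orientations thus gave negative means with the modifier. Over all spots the medians were 0.159, 0.129, -0.179 and -0.096 on replicates 1 to 4 of modifier over wildtype. Against Wobbler they were 0.157, 0.178, -0.073 and -0.039. A change of sign with the dyes was thus present over all spots too. In Wobbler over wildtype, however, Syce2 and Kash5 split more widely than the medians. Their means there on replicates 1 and 2, and on replicates 3 and 4, were 0.29 and -0.32 for Syce2. For Kash5 they were 0.45 and -0.33. Whether these genes split more than other genes was not tested.

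Smc1b had log2 ratios of 0.84, 0.07, 0.97 and 0.22 in Wobbler over wildtype. All 4 arrays lay above 0, as for 6.03% of features with 4 values, and replicates 1 and 3 stood above the others. The mean was 0.52 ± 0.45 (SD, n = 4), or 144% of wildtype (69.6% with the sign reversed), and did not pass (limma adjusted p = 0.233). The 2 probes differed in how far they repeated. One gave 0.80, 0.49, 0.38 and 0.39, a mean of 0.52 ± 0.20 (SD, n = 4). The other gave 0.88, -0.36, 1.56 and 0.04, a mean of 0.53 ± 0.86 (SD, n = 4). Tested as features of their own, the steadier probe had an adjusted p of 0.113 and the other of 0.413.

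The 3 direct comparisons can be set against each other around the loop. Modifier over Wobbler, measured directly, minus the difference of the other comparisons was 0.27 ± 0.22 (SE) for Syce2, 0.09 ± 0.24 (SE) for Kash5 and 0.42 ± 0.32 (SE) for Smc1b. None of the 3 genes passed for this difference (limma adjusted p of 0.759, 0.926 and 0.756), and 0 had an unadjusted p under 0.05. Of all features 0.0272% passed, 0.0136% in each direction. The 95% interval for Kash5, -0.46 to 0.63, still leaves room for a sizeable departure.

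Other meiotic genes were read from lists by role. The list of other synaptonemal complex genes (Sycp2, Syce3, Tex12, Six6os1 and Sycp2l) had a probe for 0 of 5. Of 16 other axis and cohesin genes 9 were tested, of 56 other recombination genes 23, and of 22 genes of telomere attachment and its motor 9. None of these 41 genes passed with limma in any of the 3 comparisons. With arrays scaled to equal spread, however, 1 axis and cohesin gene was called higher and 1 recombination gene lower in modifier over wildtype. That setting called 69 of all 14729 features higher there and 370 lower. At an unadjusted p under 0.05 there were 1, 7 and 1 genes of the 3 lists in Wobbler over wildtype, 1, 5 and 0 in modifier over wildtype, and 2, 3 and 1 in modifier over Wobbler. Over all features the shares at an unadjusted p under 0.05 were 15.7%, 7.33% and 11.5%. Against wildtype the medians with the modifier were 0.07 for axis and cohesin, -0.08 for recombination and 0.14 for telomere attachment, beside 0.01 over all features. Against Wobbler they were 0.16, 0.07 and 0.07, beside 0.08 over all features. In Wobbler over wildtype they were -0.08, 0.15 and 0.22, beside -0.01.

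Several of these genes act only or mainly in meiosis, and are named here for that role after their values were seen. Rec8, the meiotic kleisin of cohesin, had a log2 ratio of -0.24 ± 0.15 (SE) in modifier over wildtype and of 0.20 ± 0.15 (SE) in modifier over Wobbler. Stag3, the meiotic cohesin subunit that works with it, was at -0.28 ± 0.17 (SE) and 0.17 ± 0.17 (SE). Psmc3ip, a partner of the recombinase, was at 0.32 and 0.12, Msh5, which stabilises crossover intermediates, at 0.01 and 0.18, and Hsf2bp, which brings BRCA2 to meiotic breaks, at 0.06 and 0.10. None of these passed in either comparison, and none was as low as Syce2 or Kash5. Other genes of the recombination list lay lower, also without passing. In modifier over wildtype Topbp1 was at -0.78, Chek2 at -0.70 and Nbn at -0.46. Against Wobbler Topbp1 was at -0.73, lower than Syce2 there, and Rad18 at -0.58. That list held 13 negative and 10 positive ratios against wildtype, and 11 negative and 12 positive against Wobbler.

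Rec114, which is needed for break formation by Spo11, was lower than Rec8, Stag3, Psmc3ip, Msh5 and Hsf2bp. Its log2 ratios were -0.18, -0.27, -1.02 and -0.52 on the arrays of modifier over wildtype and -0.06, -0.82, -0.66 and -0.69 on those of modifier over Wobbler. All 8 lay below 0, but it did not pass (means of -0.50 and -0.56, limma adjusted p of 0.355 and 0.225). In Wobbler over wildtype it was at 0.77, 0.15, 0.60 and 0.37, and likewise did not pass (adjusted p = 0.233).

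Esco2, an acetyltransferase that establishes cohesion, had the highest ratio of the 3 lists in modifier over wildtype, 2.38 ± 0.42 (SE, n = 3), with a limma adjusted p of 0.0591. Its 3 values, 1.17, 3.95 and 2.80, were far apart. In modifier over Wobbler it was at -1.39, -0.54 and -1.22 on the 3 arrays that measured it. Of its 10 values 4 sat at such small whole-number ratios. Of the 12 values of Kash5 2 did so, and of Syce2 and Smc1b 0. The Rec114 value on replicate 4 of modifier over wildtype (-0.52) sat at such a ratio as well.

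**Figure D2:**
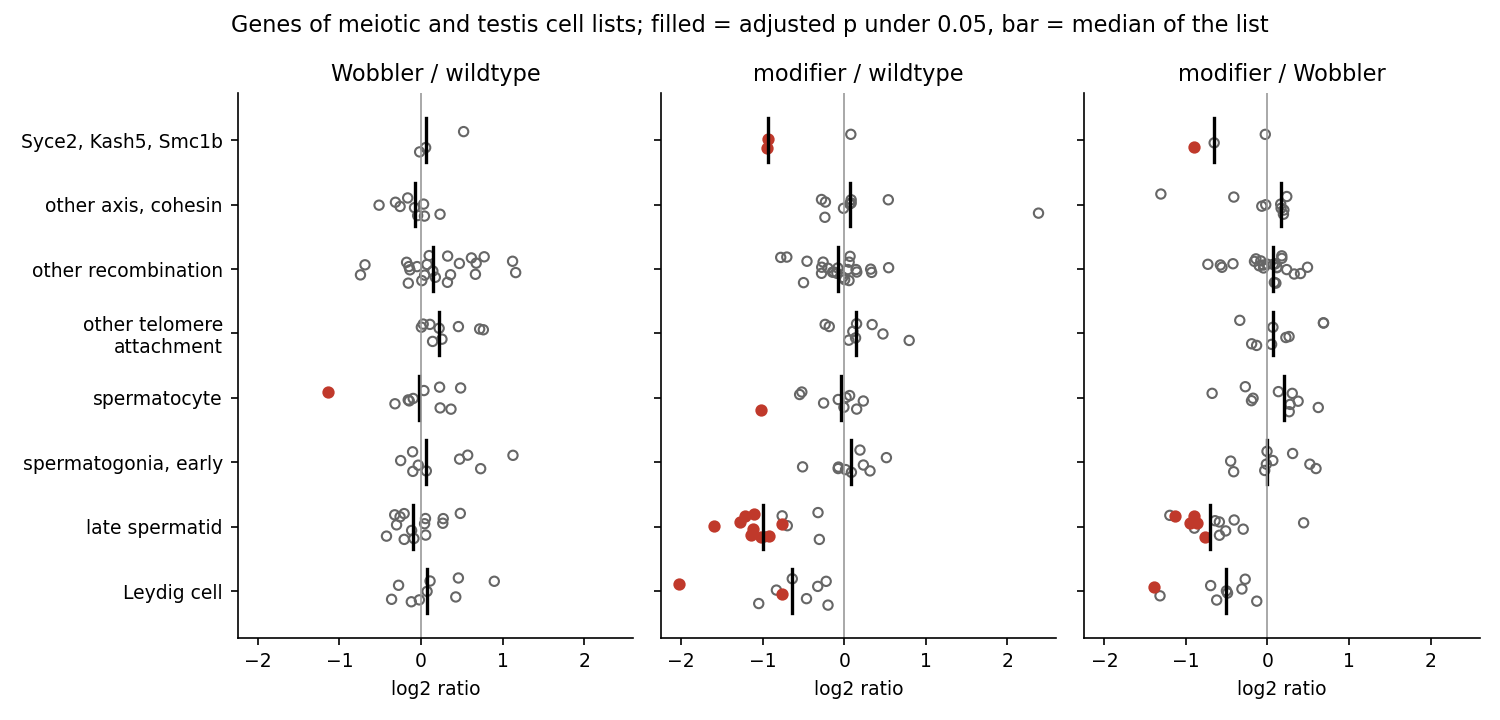
Log2 ratio of each tested gene (horizontal axis) in 8 groups of genes (rows) for the 3 comparisons (panels); filled points passed an adjusted p of 0.05 with limma, open points did not, and black bars are list medians. With the modifier, Syce2 and Kash5 lie among the late spermatid genes, while the other axis, recombination and telomere lists are spread around 0 with no filled point, the highest point being Esco2 (2.38).

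Markers of testis cell types were read beside these values. Among spermatocyte genes 10 of 21 were tested. Against wildtype 1 was lower with the modifier, Pgk2 (-1.02), a glycolytic enzyme of meiotic and later germ cells, and 0 were higher. At an unadjusted p under 0.05 in limma there were 3, all lower: Pgk2, Ldhc (-0.52) and Meig1 (-0.55). The median was -0.04, with 6 negative and 4 positive ratios. In modifier over Wobbler 0 of 10 passed, with 3 at an unadjusted p under 0.05, and the median was 0.20. Of those 3, Pgk2 was lower (-0.68), and Piwil2 (0.38) and Ddx4 (0.30) were higher. In Wobbler over wildtype 1 was lower, H1f6 (-1.14), the testis linker histone, with 3 at an unadjusted p under 0.05 in limma. The median there was -0.03, or 0.01 with arrays centred on their medians. H1f6 was at -0.004 in modifier over wildtype and at 0.13 in modifier over Wobbler. Set against each other, those comparisons do not show H1f6 lower in Wobbler to that extent. With arrays scaled to equal spread 3 were lower in modifier over wildtype, beside 370 of all 14729 features. With arrays centred 1 was lower in modifier over Wobbler, beside 66 of all features. Of 9 tested genes of spermatogonia and early germ cells 0 passed in any comparison (1, 0 and 0 at an unadjusted p under 0.05 in Wobbler over wildtype, modifier over wildtype and modifier over Wobbler), with medians of 0.07, 0.09 and -0.01, the last being 0.02 with scaled arrays.

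Late spermatid genes moved with Syce2 and Kash5. Of 14 tested, 9 were lower and 0 higher in modifier over wildtype, with a median of -0.99, and 5 were lower and 0 higher in modifier over Wobbler, with a median of -0.70. Tnp1, a transition protein that replaces histones, had log2 ratios of -1.10 and -1.13, Smcp, of the sperm mitochondrial capsule, -1.12 and -0.86, and Oaz3, a spermatid antizyme, -1.28 and -0.90. Scaled arrays gave 12 and 5 lower, beside 370 and 37 lower of all 14729 features. In Wobbler over wildtype 0 of 14 passed (2 at an unadjusted p under 0.05), and the median was -0.10. The list's median on single arrays ran from -1.20 to -0.84 in modifier over wildtype, from -0.81 to -0.55 in modifier over Wobbler, and from -0.43 to 0.16 in Wobbler over wildtype. Its part in the ratios of Syce2 and Kash5 was not tested.

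Somatic markers were read in the same way. All 9 Leydig cell genes had negative ratios in both modifier comparisons, with 5 at an unadjusted p under 0.05 in each. Of the 9, 2 were called lower in modifier over wildtype, Cyp17a1 (-2.03), of androgen synthesis, and Ephx1 (-0.77), with a median of -0.64. In modifier over Wobbler 1 was lower, Cyp17a1 (-1.39), with a median of -0.50. Of 8 macrophage genes 1 was lower in modifier over wildtype, Tyrobp (-0.68), with a median of -0.11, and 0 passed in modifier over Wobbler (2 at an unadjusted p under 0.05), with a median of -0.11. Of 9 Sertoli cell genes 0 passed in either (3 and 1 at an unadjusted p under 0.05), with medians of -0.12 and -0.03. In Wobbler over wildtype 0 genes of these 3 lists passed, with 1, 0 and 2 at an unadjusted p under 0.05 and medians of 0.08, -0.05 and 0.01, the last being -0.01 with scaled arrays. Scaling the arrays gave 3 lower Leydig, 2 lower macrophage and 1 lower Sertoli gene in modifier over wildtype. It also raised the lower calls over all 14729 features there, from 103 to 370.

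**Figure D3:**
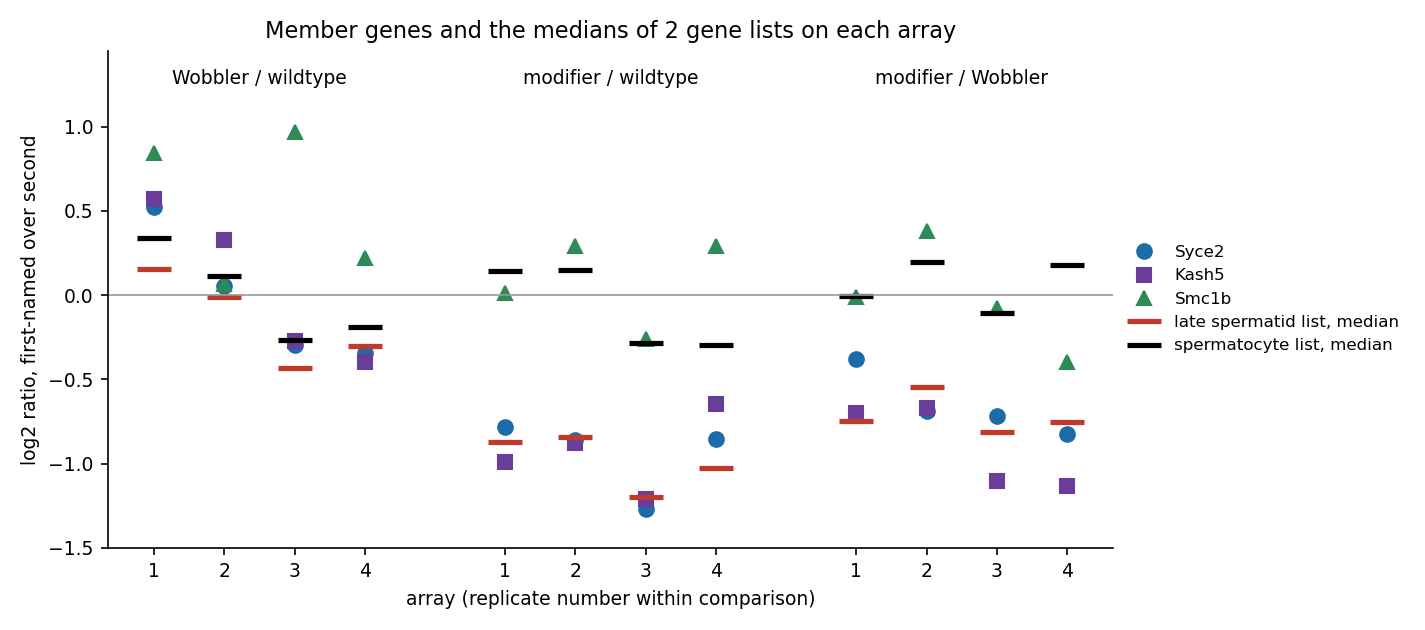
Log2 ratio (vertical axis, first-named genotype over second) on each of the 12 arrays (horizontal axis, replicate number within comparison) for Syce2, Kash5 and Smc1b, with the median of 14 late spermatid genes (red dash) and of 10 spermatocyte genes (black dash). On the 8 arrays with modifier RNA, Syce2 and Kash5 lie from -1.27 to -0.38, below the spermatocyte median on each, and on both sides of the late spermatid median; Smc1b lies above the late spermatid median on each.

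The profiles of Syce2 and Kash5 over the 12 arrays were close to each other. Their root mean square difference was 0.21 on the log2 scale, and the largest difference on 1 array was 0.38. Among 8044 other named genes with values on all arrays, Kash5 was number 5 in closeness to Syce2, and Syce2 number 3 in closeness to Kash5. The arrays share genotypes, and may share RNA pools, so this is a description.

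Outside the 9 genes, the profiles nearest to Syce2 were those of Chl1 (a neural cell adhesion molecule), Stard6 (a START-domain lipid-binding protein) and Gstm3 (a glutathione transferase), at root mean square differences of 0.18, 0.18 and 0.19, where the median over 8042 candidates was 0.85. Their log2 ratios in modifier over wildtype were -0.88, -0.78 and -1.07, and all 3 passed there with limma (adjusted p of 0.00893, 0.00778 and 0.00670). Against Wobbler they were -0.59, -0.52 and -0.65, and like Syce2 they did not pass (0.0739, 0.0683 and 0.0771). Since these genes were picked for likeness on the same arrays, their ratios and p-values largely follow from that choice.

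Nearest to Kash5 were Ccdc126, Chn2 (a GTPase-activating protein for Rac) and Psma6 (a proteasome subunit), at 0.19, 0.20 and 0.22, against a median of 0.93. Their modifier over wildtype ratios were -0.99, -0.80 and -0.96, and all 3 passed (limma adjusted p of 0.0310, 0.0233 and 0.00224). Against Wobbler they were at -0.72, -0.83 and -0.74. There Chn2 and Psma6 passed (limma adjusted p of 0.0335 and 0.0168) and Ccdc126 did not (0.142). These values too largely follow from the choice by likeness.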

How the data were processed

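Each array's deposited file holds log2 ratios, 1 a spot, as the authors gave them. No header or label records the scanner, the background correction, the normalization or the log base, and the base was read from the values. The highest value, which recurs on every array at log2(100000) above an additive shift, was read as a code and set to missing (22 to 165 spots). Replicates 3 and 4 were multiplied by -1. The annotation gave 14030 of the 20355 probes a single symbol, 5 several and 6320 none. Probes of a symbol were averaged. The 14729 of 16255 features with at least 3 values in each comparison entered limma 3.58.1 (lmFit, eBayes; R 4.3.3) over the 12 arrays, modelled by a mean for each comparison plus a dye term. SE and 95% intervals are those of this model, SDs are over the arrays of a comparison, and adjusted p-values are Benjamini-Hochberg over all features. The model was tested on simulated data with independent normal noise. These data held no dye effect and no RNA pools shared between arrays, so that test covers neither. Dim spots were those whose value, less the array's shift, lay within 0.0011 of log2 ratios of whole numbers up to 5. Promoter sequences come from RefSeq, GRCm38.p6. The text names the 9 genes and up to 3 genes passing per list and comparison with the smallest p. It also names the 3 nearest profiles of Syce2 and Kash5. Genes named for their meiotic role or for their ratio are additional. The genes and lists were chosen with earlier results of these data known. Alternatives changed centring, scaling, dye term, filter, probes, weights, model and arrays. Although the labelling protocol speaks of reference cDNA, the genotypes given for both channels were used.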

Additional observations from a re-analysis of the deposited data

Results flagged for a closer look

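In modifier over wildtype, replicate 3 of Syce2 (-1.27) lay far from the other 3 arrays, the nearest being -0.86. The gap was 0.84 of the whole range, above the critical value for 4 values. This was 1 of 9 groups of 4 arrays examined, and chance flags about 1 in 20 groups. Without that array the Syce2 ratio was -0.89 with a limma adjusted p of 0.0874. Kash5 and the late spermatid median were also lowest on it, at -1.21 and -1.20. So was the median over all spots, -0.179, against 0.159, 0.129 and -0.096 on replicates 1, 2 and 4. Arrays were not centred in the main fit, and the flag was not tested on centred arrays.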

How the results depend on the processing

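The ratios of Syce2 and Kash5 in both modifier comparisons and of Smc1b in Wobbler over wildtype kept their direction under all alternatives run on them (the reading with no sign turned was run on counts over all features only); the calls did not. Against 2 genes called in modifier over wildtype, 1 was called without the dye term and 1 with a replicate block, Kash5 being lost (adjusted p 0.0724 and 0.0677), and 0 with its 4 arrays fitted alone (0.136 and 0.150). Leaving out 1 array gave 0 to 2. Against 1 gene in modifier over Wobbler, 2 were called with arrays centred on medians, with values on all 12 arrays and with the loop model of 2 genotype coefficients, and 0 without the dye term, with a replicate block (Kash5 adjusted p 0.0948), with dim spots missing, with array weights (0.0550) and with the arrays alone. Leaving out 1 array gave 0 to 2. Same-numbered arrays deviated with correlations of -0.03 to 0.07 over all features. These values show no pairing by replicate number, but noise of single spots could hide one, so they cannot exclude it. Values near 0 changed sign in Wobbler over wildtype for Syce2 (0.024 centred; -0.15 to 0.039 leaving out 1 array) and Kash5 (-0.0019 scaled to equal spread, -0.060 with dim spots missing, -0.060 with array weights; -0.058 to 0.15), and for Smc1b in modifier over wildtype (-0.023 to 0.18) and modifier over Wobbler (0.0038 with array weights; -0.15 to 0.085).

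Over all features, Wobbler over wildtype called 45 (18 higher, 27 lower): 24 scaled (6 higher, 18 lower), 24 without dye term, 22 with a replicate block, 87 by probe, 22 with array weights, 0 alone (836 at an unadjusted p under 0.05), 0 in the loop model (1513), and 18 to 54 leaving out 1 array. Modifier over wildtype called 108 (5 higher, 103 lower): 439 scaled (69 higher, 370 lower), 46 without dye term, 58 with a replicate block, 165 by probe, 709 with array weights, 0 alone (2040), 224 in the loop model, and 19 to 163. Modifier over Wobbler called 61: 7, 24 and 110 under the no-dye, replicate block and probe settings, 0 alone (1288), 207 in the loop model, and 6 to 137. With no sign turned 0 were called in each (2273, 495 and 1325 at an unadjusted p under 0.05). The loop difference called 4, with 0 scaled, 1 with a replicate block and 2 to 5 leaving out 1 array. The causes were not tested. No intensities were used here, so signal over background is unknown.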
